A study of Rattus norvegicus with 24 samples.

Results

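Morphine treatment of neuropathic rats was examined in the dorsal root ganglion (DRG), the cluster of sensory neurons, glia and supporting cells beside the spinal cord, by comparing 4 vincristine-morphine treated rats with 4 vincristine-saline treated rats. These 8 arrays, 1 per rat, were chosen by the source names in the labels out of 24. All 24 rats were Sprague-Dawley animals 3 months old. Those of both compared groups received vincristine, a chemotherapy drug that binds tubulin and causes a painful neuropathy, for 10 days at 0.1 mg/kg/day, and then 5 days of morphine or of saline. The remaining groups of 4 were vincristine-oxycodone, saline-morphine, saline-oxycodone and saline-saline treated rats, of which saline-morphine and saline-saline rats (control rats without vincristine) and vincristine-oxycodone rats serve here as further comparisons. Both opioids were injected systemically and whole lumbar ganglia were taken, so a difference between groups is one between mixtures of cells after drug exposure of the entire animal.

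Morphine acts mainly on the mu-opioid receptor, which inhibits sensory neurons through Gi and Go proteins. Secreted and membrane proteins, among them the receptors and neuropeptides that DRG neurons make in large amounts, fold in the endoplasmic reticulum (ER) with the help of chaperones. When unfolded proteins build up there, the sensors ATF6, IRE1 and PERK start the unfolded protein response, in which ATF6 and XBP1 raise transcription of chaperone genes through ER stress elements in their promoters.

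In the DRG of vincristine-morphine treated rats, genes of ER protein folding stood higher than in vincristine-saline treated rats, with Creld2 at 2.08-fold and Pdia4 at 1.54-fold at the top. Of 23 ER chaperone and folding genes measured, 22 were higher. Creld2 was the one gene to pass the adjusted threshold, and only when the order of the arrays in the table was taken into account. Genes of matrix, macrophages and antigen presentation were mostly lower by small amounts, and none of them passed the adjusted threshold. Markers of nociceptors were balanced around 0.

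Because the ER chaperones lead the comparison, promoters of the 5 members with the smallest p of those with an entry in RefSeq's promoter table (rat build GRCr8, 250 bases before to 50 after the start of the gene) are shown first. Capitals mark the ER stress element, searched on both strands as CCAAT, which binds NF-Y, then any 9 bases, then CCACG, which binds ATF6. The Pdia4 promoter holds CCAAT and CCACG in its 300 bases but not at this spacing, and is printed without capitals. Creld2 lies at chr7:121789134-121789433 (plus strand), Hspa5 at chr3:38452766-38453065 (plus), Pdia4 at chr4:78153142-78153441 (minus), Dnajc3 at chr15:102432417-102432716 (plus) and Calr at chr19:40213117-40213416 (plus).
Creld2: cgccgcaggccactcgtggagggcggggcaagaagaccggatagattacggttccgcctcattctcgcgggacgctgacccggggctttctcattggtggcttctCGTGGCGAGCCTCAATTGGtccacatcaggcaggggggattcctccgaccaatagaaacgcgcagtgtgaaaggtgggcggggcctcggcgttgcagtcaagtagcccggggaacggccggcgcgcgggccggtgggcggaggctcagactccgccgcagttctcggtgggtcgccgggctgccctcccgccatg
Hspa5: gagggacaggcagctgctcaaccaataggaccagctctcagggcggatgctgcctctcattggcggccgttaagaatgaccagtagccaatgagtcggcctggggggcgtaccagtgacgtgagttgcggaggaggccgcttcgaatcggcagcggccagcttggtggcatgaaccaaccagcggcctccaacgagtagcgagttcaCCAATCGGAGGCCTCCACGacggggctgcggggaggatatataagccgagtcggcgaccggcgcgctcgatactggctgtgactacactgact
Pdia4: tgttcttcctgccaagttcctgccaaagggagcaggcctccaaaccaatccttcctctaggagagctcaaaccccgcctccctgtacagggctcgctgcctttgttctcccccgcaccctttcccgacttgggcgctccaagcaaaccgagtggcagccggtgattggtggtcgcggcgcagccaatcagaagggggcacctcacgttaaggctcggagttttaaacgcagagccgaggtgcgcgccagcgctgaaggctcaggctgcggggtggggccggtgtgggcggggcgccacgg
Dnajc3: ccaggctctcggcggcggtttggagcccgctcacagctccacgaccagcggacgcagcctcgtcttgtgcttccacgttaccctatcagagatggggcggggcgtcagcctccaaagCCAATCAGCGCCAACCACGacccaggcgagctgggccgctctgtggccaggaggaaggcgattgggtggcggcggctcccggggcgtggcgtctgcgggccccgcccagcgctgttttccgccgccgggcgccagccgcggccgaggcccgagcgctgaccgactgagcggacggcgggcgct
Calr: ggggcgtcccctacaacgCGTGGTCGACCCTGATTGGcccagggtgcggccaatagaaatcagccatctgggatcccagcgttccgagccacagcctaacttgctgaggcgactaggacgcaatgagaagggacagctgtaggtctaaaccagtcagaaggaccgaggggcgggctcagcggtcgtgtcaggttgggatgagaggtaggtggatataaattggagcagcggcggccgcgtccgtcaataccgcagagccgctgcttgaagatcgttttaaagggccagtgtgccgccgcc

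The element was found in 22 of 33469 promoters of the table (0.0657%), and in 7 of the 20 measured ER members that have an entry. Its position, counted from the start of the gene to the first base of the match, was -145 in Creld2, -43 in Hspa5, -133 in Dnajc3 and -232 in Calr. Among the other members with a match, Xbp1 held 1 and Hsp90b1 held 2, shown with 10 bases on either side. A related element, ATTGG, any base and CCACG on both strands, was found in 17 promoters (0.0508%), among them those of Dnajb11 and Herpud1, and does not overlap the first one in these windows.
Xbp1: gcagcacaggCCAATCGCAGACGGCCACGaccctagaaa
Hsp90b1, first match: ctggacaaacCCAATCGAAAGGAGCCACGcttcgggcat
Hsp90b1, second match: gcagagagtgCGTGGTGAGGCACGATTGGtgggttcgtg
Dnajb11: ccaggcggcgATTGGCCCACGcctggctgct
Herpud1: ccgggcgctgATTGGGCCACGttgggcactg
Matches describe the letters in these windows, are not shown binding sites and would be the same whatever the treatment. Canx, the membrane-bound lectin chaperone calnexin, was the only ER member with a lower level, at -0.16 on the log2 scale, and is among the 7 members with a match. Manf and Pdia6 were not in the promoter table.

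The arrays measured 22517 probes, of which 7043 were kept as detected, standing for 5435 named genes. On the 8 arrays 6112 to 6907 probes were detected, and the median raw signal lay between 48.6 and 72.8. Defining markers were detected on all 8 arrays for large-diameter sensory neurons (4 of 4), nociceptors (5 of 6, without Calca), fibroblasts (3 of 3), macrophages (2 of 2) and myelinating Schwann cells (2 of 2). Markers of the central nervous system (Mog, Aqp4 and Olig2) and the endothelial marker Cdh5 were detected on none. The signal columns stand in 4 runs of 6 neighbours, each with 1 array of every group, here called sets. The sources used here do not say what a set stands for, but arrays of a set deviated together (mean correlation 0.412). The leading genes are therefore given without the set and, as an alternative, with the set as a block.

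Skeletal muscle RNA varied strongly between arrays. Mean log2 signal over 15 skeletal muscle genes was 9.26, 6.95, 9.14 and 6.47 in vincristine-morphine rats 1 to 4, against 6.49, 7.43, 6.93 and 6.59 in vincristine-saline rats 1 to 4. Vincristine-morphine rats 1 and 3 thus carried high muscle signal, and their part in the results was not tested beyond the values obtained after dropping the 5 of 24 arrays above 7.5, which are given beside the ER, heat shock, macrophage, antigen presentation, matrix and endothelial genes and where they moved a named gene strongly. These 2 rats belong to sets 2 and 4 (defined above), while no vincristine-saline array was dropped. Without the set, such values therefore mix the drop with differences between sets.

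Of 7043 probes, 0 (0%) passed adjusted p 0.05 by limma without the set, and 128 had an unadjusted p under 0.05. The methods' t-test also called 0 after Benjamini-Hochberg adjustment and 142 before it. Among the 128, 62 were higher (0.88% of probes) and 66 were lower (0.937%) in vincristine-morphine rats. With the set as a block, 1 probe passed (0.0142%), that of Creld2, and 176 (2.5%) were higher and 178 (2.53%) lower at unadjusted p under 0.05. All 4 vincristine-morphine arrays lay above all 4 vincristine-saline arrays for 36 probes (0.511%) and below them for 37 (0.525%). With no difference between groups, a share of 0.05 of probes is expected at unadjusted p under 0.05 over both directions. The count without the set lay below that share, and the count with the set lay about at it. Random regrouping would separate the groups fully for a share of 0.0286 over both directions, more than was found. The limma p-values set a difference against the spread between rats within the 6 groups. With the set as a block, they set it against the spread that remains after the set.

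Creld2, an ER-resident disulfide isomerase induced by ER stress, gave 8.87, 8.87, 8.88 and 9.09 in vincristine-morphine rats 1 to 4, against 8.10, 8.03, 7.91 and 7.43 in vincristine-saline rats 1 to 4 (log2 normalized signal, as throughout). The groups did not overlap, and the difference was positive in each set, at 1.06, 0.77, 0.95 and 1.45 in sets 1 to 4. The difference was 1.06 ± 0.203 (SE, n = 4 rats a group; 95% interval 0.64 to 1.48), with limma adjusted p = 0.261 without the set and 0.0468 with it as a block. The two-sided exact permutation test over 70 regroupings gave p = 0.0286, the smallest that 4 against 4 rats allow. Leaving out 1 array at a time with the block moved the adjusted p of Creld2 between 0.0265 and 0.405. It stayed under 0.05 without vincristine-saline rat 1, vincristine-saline rat 2 or vincristine-morphine rat 2, and exceeded it without any one of the other 5 rats. The difference stayed between 0.91 and 1.14 without the block in the same runs. Without arrays of high muscle signal it was 1.11, and 1.02 with the set (limma adjusted p = 0.817 and 0.274). In a fit of only the 8 arrays with the set as a block, the limma adjusted p of Creld2 was 0.427.

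Pdia4, a protein disulfide isomerase of the ER also called ERp72, gave 8.98, 8.95, 9.07 and 9.12 in vincristine-morphine rats against 8.78, 8.24, 8.36 and 8.26 in vincristine-saline rats. Every vincristine-morphine value lay above every vincristine-saline value, and vincristine-saline rat 1 stood above the other vincristine-saline rats. The difference was 0.62 ± 0.135 (limma adjusted p = 0.516, with the set 0.0647). Manf, a secreted ER protein with neurotrophic activity, gave 9.92, 9.75, 9.87 and 9.73 in vincristine-morphine rats against 9.50, 9.10, 9.30 and 9.08 in vincristine-saline rats. These values did not overlap either, and differed by 0.57 ± 0.152 (limma adjusted p = 1, with the set 0.137).

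Hspa5, which encodes BiP, the main Hsp70 chaperone of the ER and the repressor of its stress sensors, was among the brightest genes. Its values were 13.11, 12.89, 13.10 and 13.04 in vincristine-morphine rats against 12.93, 12.49, 12.41 and 12.45 in vincristine-saline rats. Vincristine-saline rat 1 lay above vincristine-morphine rat 2, so the groups overlapped (exact permutation p = 0.0571), while all 4 sets were positive. The difference was 0.47 ± 0.131 (limma adjusted p = 1, with the set 0.309).

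Dnajc3, a BiP co-chaperone that also inhibits PERK, gave 9.31, 9.17, 9.29 and 9.35 in vincristine-morphine rats against 9.07, 8.89, 8.84 and 8.92 in vincristine-saline rats. Calr, the calcium-binding lectin chaperone calreticulin, gave 12.80, 12.80, 12.84 and 12.87 in vincristine-morphine rats against 12.73, 12.56, 12.51 and 12.50 in vincristine-saline rats. Both genes were without overlap between the groups, at 0.35 ± 0.0966 and 0.26 ± 0.0754 higher. Smaller differences were seen for Dnajb11 (0.30) and Dnajb9 (0.21), co-chaperones of BiP, for Pdia6 (0.26), a disulfide isomerase, and for Xbp1 (0.23), the transcription factor activated by IRE1. None of these passed the adjusted threshold with or without the set.

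**Figure D1:**
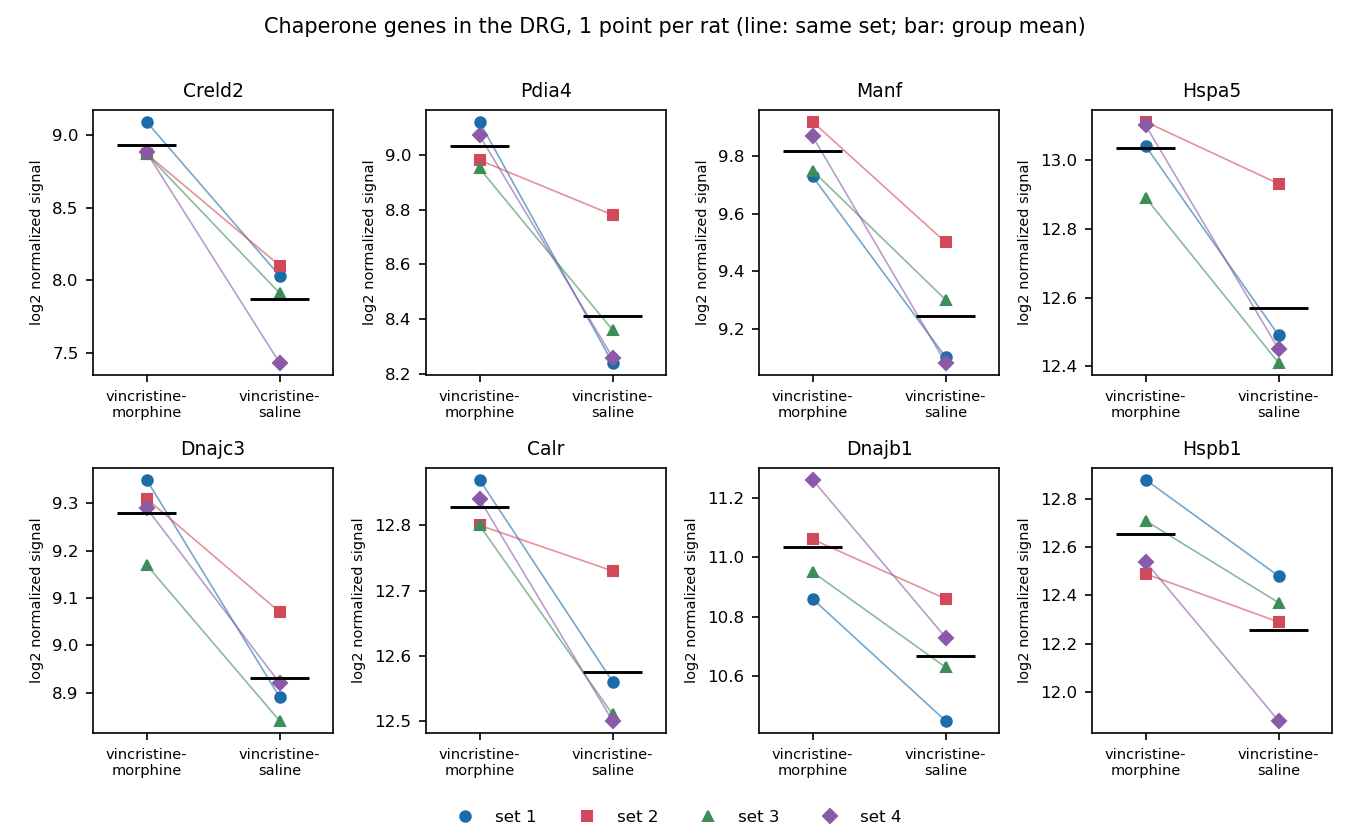
Log2 normalized signal (vertical axes) of 8 chaperone genes in vincristine-morphine rats (left) and vincristine-saline rats (right), with 1 point per rat, colour and symbol for the set, lines between arrays of a set and bars for group means. All lines slope down from vincristine-morphine to vincristine-saline, and only Hspa5 has overlapping groups.

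Over the whole ER list, 10 of 23 members (43.5%) were higher at unadjusted p under 0.05 and 9 of 23 (39.1%) had all vincristine-morphine arrays above all vincristine-saline arrays, beside 0.88% and 0.511% of all probes. With the set 11 were higher and 1 lower at unadjusted p under 0.05, beside 136 higher and 140 lower of 5435 genes. After median centring 4 were higher at that p, beside 14 of 5435 genes. The median difference was 0.20, beside -0.0019 over 5435 genes, and was 0.26, 0.14, 0.18 and 0.22 in sets 1 to 4. The mean level of the list lay between 9.91 and 10.1 in vincristine-morphine rats and between 9.64 and 9.87 in vincristine-saline rats, without overlap. Without arrays of high muscle signal 21 of 23 were higher, with a median of 0.23, and leaving out 1 array at a time left 18 to 22 higher. Of the remaining members, P4hb (0.08), Pdia3 (0.10), Ppib (0.02) and Sel1l (0.07) differed by less than their standard errors, while Erp29 (0.13 ± 0.0844), Syvn1 (0.17 ± 0.094) and Hsp90b1 (0.26 ± 0.207) were higher in all 4 sets, Erp29 without overlap.

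Chaperones outside the ER were next in order. Dnajb1, the cytosolic Hsp40 that delivers clients to Hsp70, gave 11.06, 10.95, 11.26 and 10.86 in vincristine-morphine rats against 10.86, 10.45, 10.63 and 10.73 in vincristine-saline rats. The lowest vincristine-morphine and the highest vincristine-saline array nearly met, but within sets the differences were 0.42, 0.20, 0.32 and 0.53. The overall difference was 0.37 ± 0.102 (limma adjusted p = 1, with the set 0.0647). Hspb1, the small heat shock protein Hsp27, known to rise in rat DRG neurons after nerve injury, gave 12.49, 12.71, 12.54 and 12.88 in vincristine-morphine rats against 12.29, 12.48, 12.37 and 11.88 in vincristine-saline rats. It was higher by 0.40 ± 0.144 (limma adjusted p = 1, with the set 0.098). Of 20 cytosolic and mitochondrial heat shock genes, 18 were higher with a median of 0.12, and 2 of 20 had an unadjusted p under 0.05, beside 0.88% of all probes. With the set 7 of 20 did, beside 2.5% of all probes. Without arrays of high muscle signal 16 of 20 were higher, and Dnajb1 was 0.24 higher. With the set as well, 18 of 20 were higher, and Dnajb1 was 0.30 higher. Stip1, the Hsp70 to Hsp90 adaptor Hop, was 0.18 higher. Of the 15 measured heat shock genes with a promoter entry, 4 (Chordc1, Dnaja1, Hspd1 and Hspe1) but neither Dnajb1 nor Hspb1 held a heat shock element (GAA, TTC and GAA with 2 bases between them, on both strands, found in 0.798% of promoters).

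Genes regulated through PERK were examined next. Ddit3, which encodes the transcription factor CHOP, gave 10.38, 10.13, 10.27 and 9.90 in vincristine-morphine rats against 10.01, 9.52, 10.02 and 9.98 in vincristine-saline rats. The groups overlapped, and the difference was 0.29 ± 0.171 (limma adjusted p = 1, with the set 0.684). Among 20 genes of the integrated stress response and amino acid supply, 14 were higher and 6 lower with a median of 0.036. Of these, 0 had an unadjusted p under 0.05 without the set, beside 53 higher and 52 lower of 5435 genes. With the set 1 was higher at that p (Ddit3), beside 2.5% of all probes. Asns, asparagine synthetase, was 0.25 higher with wide scatter. Ddit3 stood at 0.13 and Asns at -0.10 without arrays of high muscle signal, and at 0.27 and 0.08 with the set as well.

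**Figure D2:**
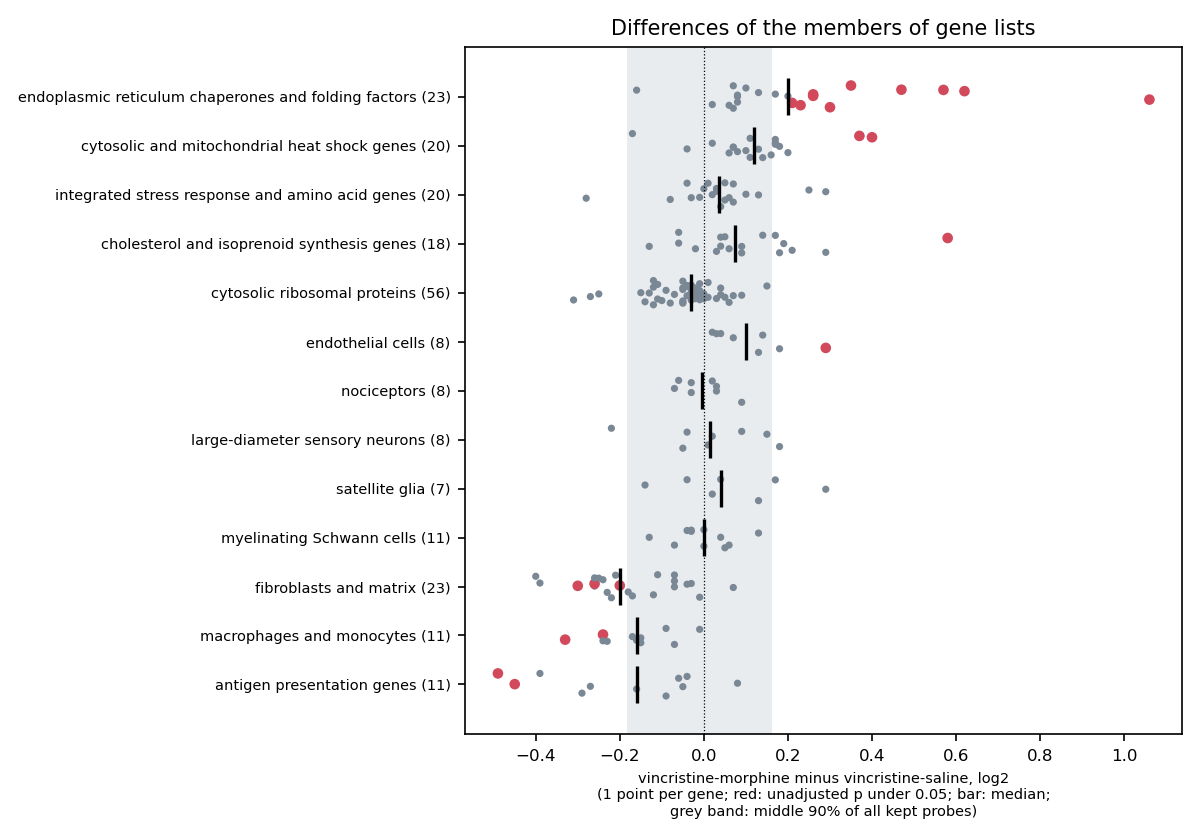
Difference of vincristine-morphine minus vincristine-saline (log2, horizontal axis) for the members of 13 gene lists, with 1 point per gene, red for unadjusted p under 0.05, a bar for the list median and a grey band for the middle 90% of all kept probes (-0.18 to 0.16). ER chaperones extend to the right up to Creld2 at 1.06, whereas fibroblast, macrophage and antigen presentation genes lie mostly left of 0.

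Clock genes differed one by one. Cry1, a repressor of the circadian loop, gave 8.42, 7.96, 8.08 and 7.81 in vincristine-morphine rats against 7.79, 7.64, 7.61 and 7.59 in vincristine-saline rats, with no overlap and a difference of 0.41 ± 0.128 (limma adjusted p = 1, with the set 0.318). The difference of Cry1 was 0.23 without arrays of high muscle signal, and 0.29 with the set as well. Nr1d1, the nuclear receptor Rev-erb alpha that represses Bmal1, gave 7.28, 6.81, 6.83 and 6.87 in vincristine-morphine rats against 7.29, 7.33, 7.53 and 7.75 in vincristine-saline rats. Vincristine-morphine rat 1 nearly reached the vincristine-saline range, and its set differed by only -0.01, beside -0.47, -0.71 and -0.92 in the other sets. The overall difference was -0.53 ± 0.183 (limma adjusted p = 1, with the set 0.684). Per1 and Per2, light- and hormone-responsive clock genes, stood at -0.10 and -0.03. The sources used here do not give the time of day at which each rat was dissected.

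Some leukocyte and macrophage genes were lower. Cd48, a surface ligand of leukocytes, gave 10.78, 10.59, 10.76 and 10.58 in vincristine-morphine rats against 10.92, 11.06, 10.96 and 11.02 in vincristine-saline rats. Its groups did not overlap, and at -0.31 ± 0.076 it had the smallest p of all named lower genes (limma adjusted p = 1, with the set 0.288). Trem2, a phagocytic receptor of macrophages, gave 7.96, 7.81, 7.98 and 7.92 in vincristine-morphine rats against 8.21, 8.22, 8.17 and 8.41 in vincristine-saline rats, a difference of -0.33 ± 0.113 (limma adjusted p = 1, with the set 0.789). Aif1, the macrophage protein Iba1, was at -0.24 and likewise without overlap. In these whole ganglia, fewer cells of a type and less RNA per cell cannot be told apart.

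All 11 measured macrophage and monocyte genes were lower, with a median of -0.16, and 2 of 11 (Trem2 and Aif1) had an unadjusted p under 0.05, beside 0.937% of all probes. With the set 3 of 11 did, beside 2.53% of all probes. After median centring 0 did, beside 15 lower of 5435 genes. Without arrays of high muscle signal 10 of 11 were lower, 1 of them at unadjusted p under 0.05, beside 123 of 5435 genes. Of 11 antigen presentation genes, 10 were lower with a median of -0.16. At unadjusted p under 0.05, 2 of 11 were lower, beside 52 of 5435 genes. After median centring 2 of 11 were, beside 15 of 5435 genes. RT1-Da, a class II histocompatibility chain of the rat, was at -0.49 ± 0.21, and Cd74, the invariant chain that escorts class II molecules, at -0.45 ± 0.213 (limma adjusted p = 1 each, with the set 0.977 for RT1-Da and 0.98 for Cd74). Cd74 gave 8.06, 7.75, 7.83 and 8.23 in vincristine-morphine rats against 8.49, 8.24, 8.49 and 8.45 in vincristine-saline rats. Its lowest vincristine-saline array and its highest vincristine-morphine array, both of set 1, were nearly level, and the median of the list in set 1 was 0.053 against -0.30, -0.27 and -0.33 in sets 2 to 4. Without arrays of high muscle signal 8 of 11 stayed lower, and 9 of 11 with the set as well.

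Matrix genes showed the same sign. Of 23 fibroblast and matrix genes, 22 were lower with a median of -0.20, and 3 of 23 (Dcn, Fap and Col5a2) had an unadjusted p under 0.05, beside 0.937% of all probes. With the set 5 of 23 did, beside 2.53%. After median centring 0 of 23 did, beside 15 lower of 5435 genes. Dcn, the collagen-binding proteoglycan decorin, gave 12.65, 12.54, 12.67 and 12.84 in vincristine-morphine rats against 12.72, 12.95, 12.98 and 13.10 in vincristine-saline rats. The groups overlapped, and the difference was -0.26 ± 0.0958 (limma adjusted p = 1, with the set 0.881). Set 1 again differed from the rest, with a list median of -0.014 against -0.22, -0.20 and -0.18 in sets 2 to 4. The mean level of the list was 9.57, 9.61, 9.72 and 10.03 in vincristine-morphine rats against 9.96, 10.06, 9.73 and 9.89 in vincristine-saline rats. Its 2 lowest values thus belonged to vincristine-morphine rats 1 and 2, of which rat 1 was high in muscle genes. Without arrays of high muscle signal 19 of 23 were lower, with a median of -0.10. At unadjusted p under 0.05, 1 of 23 was lower, beside 123 of 5435 genes. With the set as well, 20 of 23 were lower with a median of -0.18. Of these 3 had an unadjusted p under 0.05, beside 154 of 5435 genes.

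Olfml3, a secreted olfactomedin-like glycoprotein, gave 7.86, 7.60, 7.56 and 7.64 in vincristine-morphine rats against 8.22, 7.91, 8.14 and 8.19 in vincristine-saline rats, with no overlap and a difference of -0.45 ± 0.142. Pdgfrl, a PDGF receptor-like protein, was at -0.66 ± 0.216, also without overlap. Csgalnact1, which starts chondroitin sulfate chains, was at -0.44 ± 0.122 with overlapping groups. Gng11, a G protein gamma subunit, had the largest of these differences and the least even one, at -0.84 ± 0.339. It was -0.05 in set 1 against -1.16, -1.09 and -1.06 in sets 2 to 4. Without arrays of high muscle signal it was -0.52, and -0.89 with the set as well. All 4 had a limma adjusted p of 1 without the set. With the set it was 0.374 for Olfml3, 0.847 for Pdgfrl, 0.309 for Csgalnact1 and 0.374 for Gng11.

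**Figure D3:**
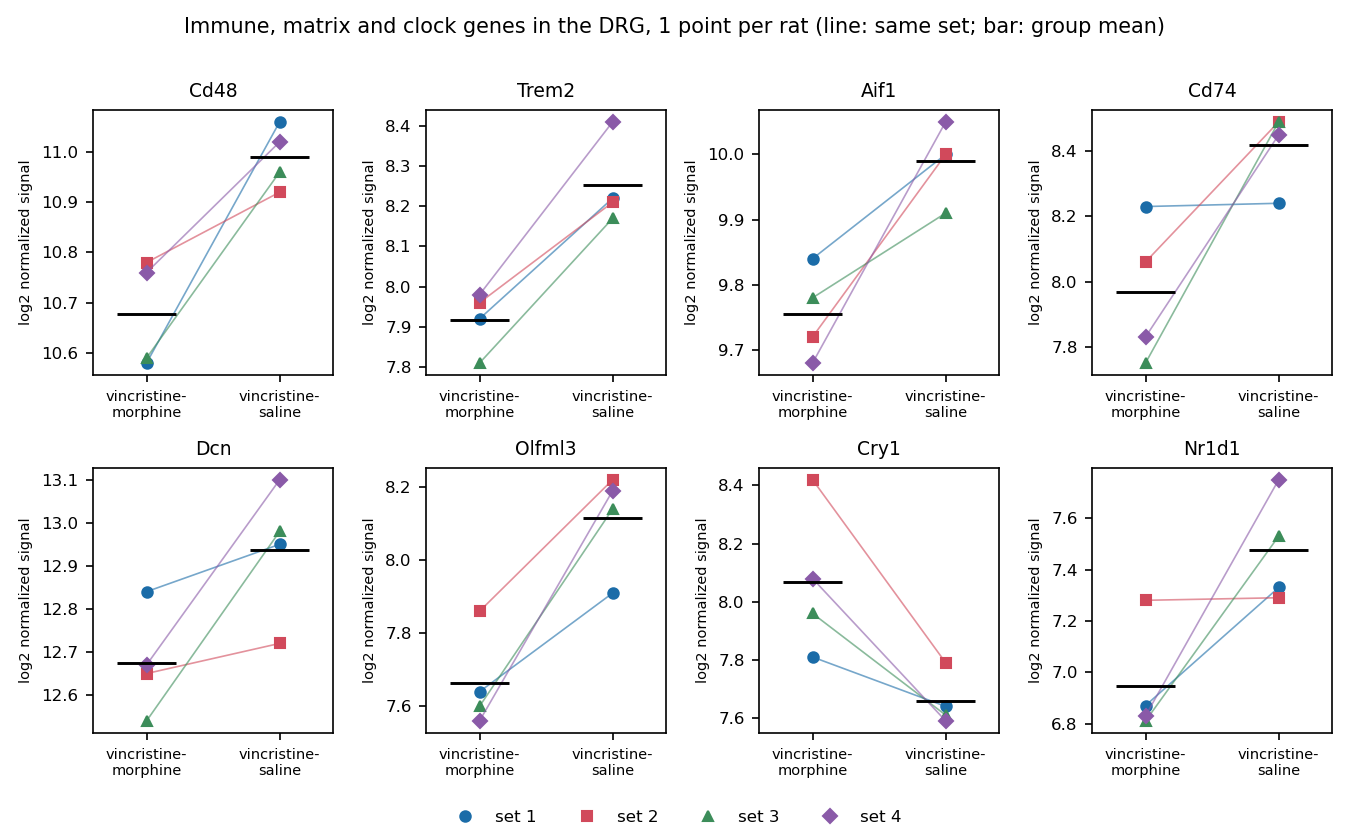
Log2 normalized signal (vertical axes) of 6 immune and matrix genes and of the clock genes Cry1 and Nr1d1 in vincristine-morphine rats (left) and vincristine-saline rats (right), with 1 point per rat, lines between arrays of a set and bars for group means. The immune and matrix genes and Nr1d1 lie lower in vincristine-morphine rats, while Cry1 lies higher.

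Chemokine genes pointed in opposite directions. Cx3cl1, the neuronal chemokine fractalkine, was 0.34 ± 0.156 higher with overlap, and Cxcl12, a chemokine of stromal cells, was at -0.33 ± 0.153 without overlap. Endothelial genes depended on the arrays used and on the set. All 8 measured members were higher with a median of 0.10, led by Cldn5, the tight junction protein claudin-5 (0.29 ± 0.118). Without arrays of high muscle signal 3 of 8 were higher and the median was -0.016. With the set as well, 6 of 8 were higher and the median was 0.062.

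Neuronal genes gave little difference. Among 8 nociceptor genes 4 were higher and 4 lower with a median of -0.0023, and Scn10a, the sodium channel Nav1.8, gave 12.84, 12.81, 12.80 and 12.75 in vincristine-morphine rats against 12.84, 12.72, 12.83 and 12.93 in vincristine-saline rats. These values overlapped fully. Calcb, the beta form of the neuropeptide CGRP, was 0.19 ± 0.0875 higher with no overlap, and Trpa1, the irritant channel, was at -0.25 ± 0.126, also with no overlap. Of 25 ion channel genes 15 were higher and 10 lower. Without the set 0 had an unadjusted p under 0.05, beside 53 higher and 52 lower of 5435 genes, so a list of this size could hardly show any. With the set 1 was lower at that p, beside 140 of 5435 genes. Large-diameter neuron genes (5 of 8 higher, median 0.014), satellite glia (5 of 7, median 0.044) and myelinating Schwann cells (4 of 11, median -0.0037) were near balance.

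Genes of the opioid system itself were detected only in part. Oprm1, which encodes the mu-opioid receptor, Oprd1, Pdyn and Pomc were detected on 0 of 24 arrays, so no level or difference is given for them. Whether their RNA was low or their probes did not respond was not tested. Oprl1, the nociceptin receptor, gave 8.06, 8.20, 8.18 and 7.80 in vincristine-morphine rats against 8.33, 7.90, 8.02 and 8.15 in vincristine-saline rats, a difference of -0.04 (95% interval -0.35 to 0.27). Penk, the enkephalin precursor, was detected in 2 vincristine-morphine and 0 vincristine-saline rats. Of 30 genes for G proteins, cyclic AMP enzymes, arrestins and kinases that act after the mu-opioid receptor, 14 were higher and 16 lower with a median of -0.0064. The one with the smallest p, Prkce (protein kinase C epsilon), was at -0.31 ± 0.191 (limma adjusted p = 1, with the set 0.98). Of 8 measured GABA genes 5 were higher and 3 lower with a median of 0.016, and Gabbr2, the GABA-B receptor subunit, stood at -0.02.

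Beside these groups, Sc5d, a sterol desaturase of cholesterol synthesis, gave 9.16, 9.13, 9.33 and 9.58 in vincristine-morphine rats against 9.18, 8.61, 8.72 and 8.37 in vincristine-saline rats, a difference of 0.58 ± 0.257 with overlap through vincristine-saline rat 1. Of 18 cholesterol synthesis genes 14 were higher with a median of 0.075. Trim45, a ubiquitin ligase, was 0.64 ± 0.206 higher without overlap. Neither these nor the chemokine, endothelial and neuronal genes named above passed the adjusted threshold. Some probes were above background in one group alone, so only a bound on their fold can be given. Lgals5, a rat galectin of reticulocytes, was detected in 3 vincristine-morphine and 0 vincristine-saline rats and was at least 1.53-fold higher (limma adjusted p = 1). This bound rests on the arrays of high muscle signal, without which the fitted difference fell to 0.30, against 1.23 with them. Rap1gds1, an exchange factor of small GTPases, was detected in 0 vincristine-morphine and 4 vincristine-saline rats and was at least 1.18-fold lower (limma adjusted p = 1).

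Whether the response depended on vincristine was asked with the control rats, which share no arrays with this comparison. Creld2 gave 8.41, 9.08, 9.29 and 8.82 in saline-morphine rats against 8.06, 7.71, 8.06 and 7.61 in saline-saline rats, a difference of 1.04 (limma adjusted p = 0.336, with the set 0.0305). Pdia4 gave 8.55, 9.16, 9.01 and 9.10 in saline-morphine rats against 8.35, 8.66, 8.39 and 8.37 in saline-saline rats, a difference of 0.52. Creld2 did not overlap between the control groups, whereas Pdia4 overlapped through saline-morphine rat 1. For Creld2 the morphine response in vincristine rats minus that in control rats was 0.02 (95% interval -0.58 to 0.62), and for Pdia4 it was 0.11 (-0.29 to 0.51). The interval for Creld2 thus reaches differences as large as the whole Pdia4 response of 0.62. Manf (0.62), Hspa5 (0.44), Dnajc3 (0.26), Calr (0.24), Dnajb1 (0.41) and Hspb1 (0.36) were also higher in saline-morphine rats, and Dnajb1 passed the adjusted threshold there with the set (limma adjusted p = 0.0305). Over the ER list 21 of 23 genes were higher in control rats, with a median of 0.22.

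Cry1 (0.38), Nr1d1 (-0.74), Trem2 (-0.34) and Cd48 (-0.22) had the same sign in control rats as in vincristine rats. Of the 62 probes higher in vincristine rats at unadjusted p under 0.05, 44 (71.0%) were also higher in control rats, and of the 66 lower probes 37 (56.1%) were also lower. Over all 7043 probes 50.8% had the same sign.

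Matrix genes had the other sign in control rats, where 18 of 23 were higher with a median of 0.076. The difference of the responses was below 0 for 22 of 23, with a median of -0.25, but 0 of 23 reached an unadjusted p under 0.05 in the test of that difference, beside 80 of 7043 probes (1.14%). Macrophage genes (median 0.05 in control rats) had a negative difference of responses for 9 of 11, beside 2794 of 5435 genes. Here too 0 of 11 reached an unadjusted p under 0.05 in the test of that difference. Csgalnact1 stood at 0.09 in control rats, with a difference of responses of -0.53 (95% interval -0.89 to -0.17). Pdgfrl stood at 0.22 there, with a difference of -0.88 (-1.52 to -0.25), Olfml3 at 0.02 with -0.47 (-0.89 to -0.05), and Gng11 at 0.32 with -1.16 (-2.16 to -0.17). Sc5d had opposite signs in vincristine and control rats, at 0.58 and -0.60, a difference of responses of 1.18 (0.42 to 1.93). These 5 genes were named for a small p in vincristine rats, and the difference of responses uses the same values again. Their intervals therefore lean away from 0 by the choice of genes and do not show a dependence on vincristine. Of 120 named probes, 12 had an unadjusted limma p under 0.05 for the difference of responses. No probe passed the adjusted threshold for the difference of responses by limma, with an adjusted p of 1 for every named gene without the set and at least 0.998 with it.

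**Figure D4:**
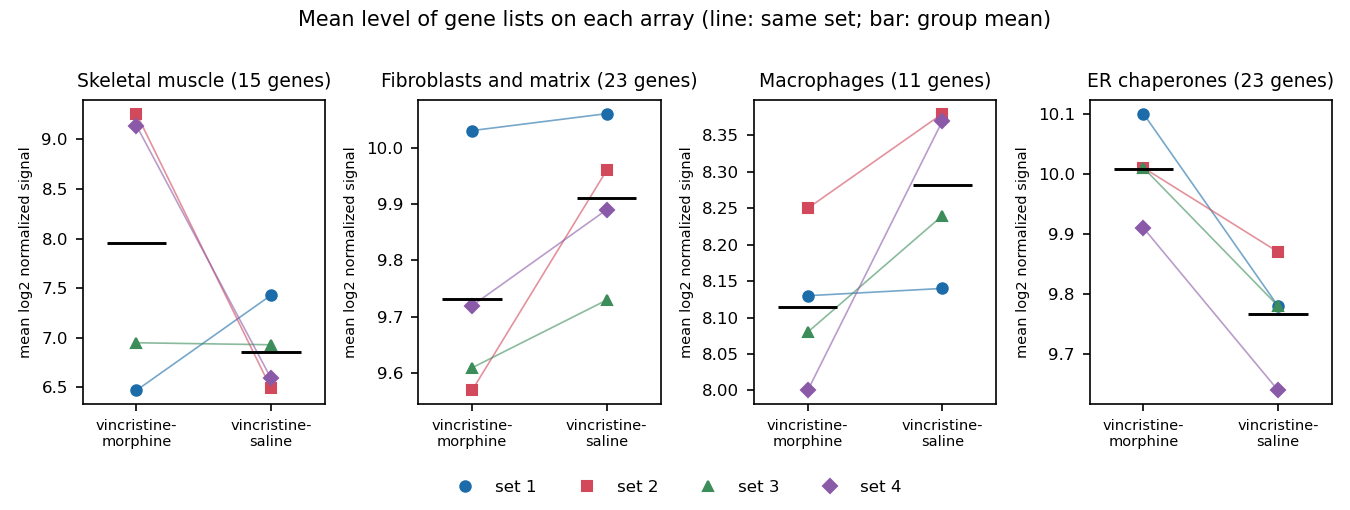
Mean log2 normalized signal of 4 gene lists (vertical axes) in vincristine-morphine rats (left) and vincristine-saline rats (right), with 1 point per rat, lines between arrays of a set and bars for group means. Muscle signal is high in vincristine-morphine rats 1 and 3 (sets 2 and 4), and ER chaperones are higher in vincristine-morphine rats of all 4 sets.

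Oxycodone, a semisynthetic opioid of the same morphinan skeleton, was given to other vincristine rats at the same dose for the same 5 days. Its comparison uses the same vincristine-saline arrays, so the values stand side by side and are not independent. Creld2 was 8.54, 8.63, 9.49 and 8.44 in vincristine-oxycodone rats, or 0.91 above vincristine-saline, with the third rat high. Pdia4 was 0.54, Manf 0.46, Hspa5 0.40, Dnajb1 0.34 and Hspb1 0.47 above vincristine-saline after oxycodone, and Trem2 (-0.48), Nr1d1 (-0.47) and Cd48 (-0.18) were below it. The direct difference, vincristine-morphine minus vincristine-oxycodone, was 0.15 (95% interval -0.27 to 0.57) for Creld2, 0.08 (-0.20 to 0.36) for Pdia4, 0.11 (-0.21 to 0.42) for Manf, 0.07 (-0.21 to 0.34) for Hspa5 and 0.03 (-0.18 to 0.24) for Dnajb1. It was 0.15 (-0.08 to 0.39) for Trem2 and -0.05 (-0.43 to 0.33) for Nr1d1. Differences between the opioids of up to 0.57 for Creld2 and 0.36 for Pdia4 lie within these intervals. Over 120 named probes the interval left out 0 for 5, and all had a limma adjusted p of 1. Of all 7043 probes, 53 had an unadjusted limma p under 0.05 for this difference. Many of the named probes were chosen by their vincristine-morphine values, which this difference uses again, so the shares are not comparable.

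**Figure D5:**
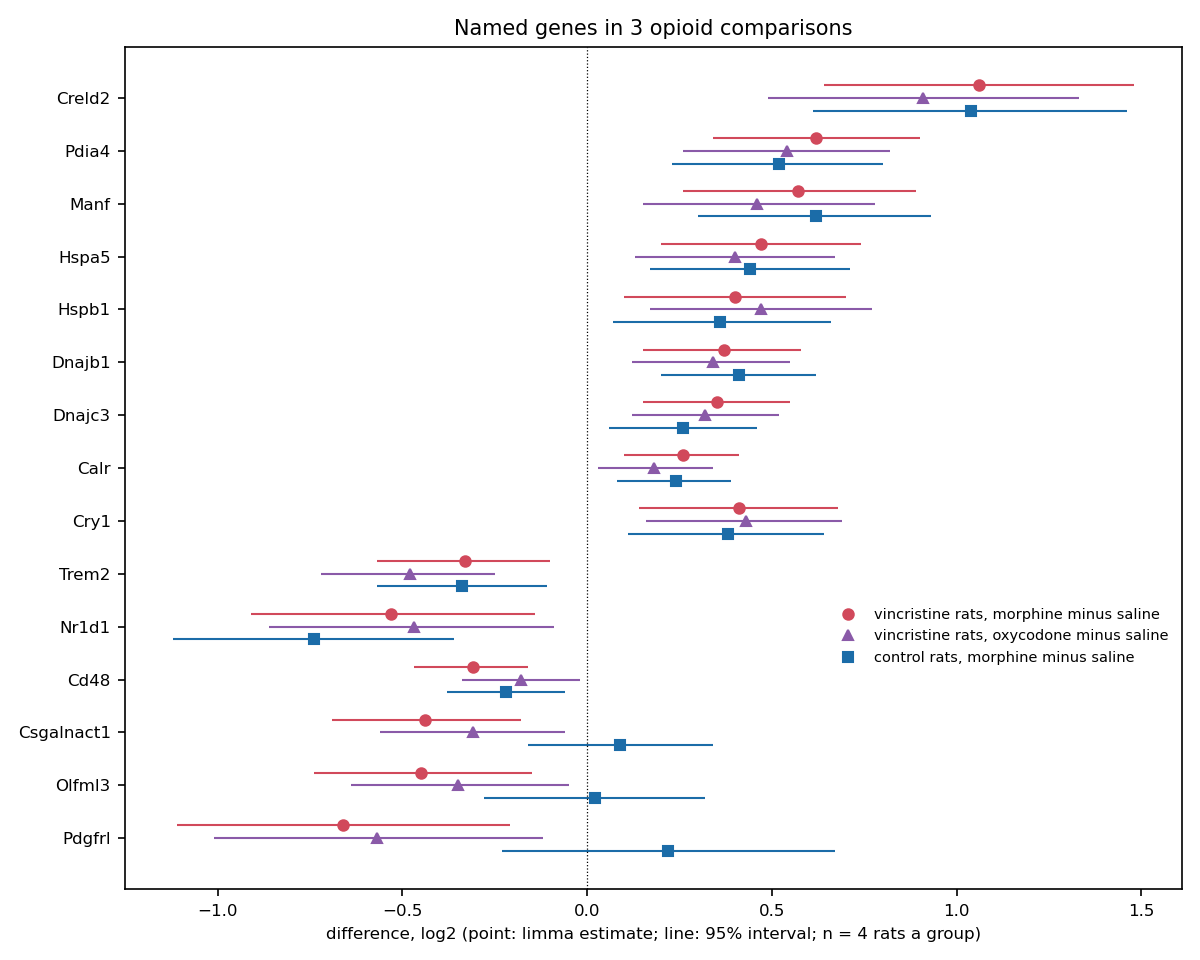
Differences in log2 normalized signal (horizontal axis) with 95% intervals for 15 named genes in vincristine rats after morphine (red circles) or oxycodone (purple triangles) against vincristine-saline, and in control rats after morphine against saline-saline (blue squares), n = 4 rats a group. Chaperone genes lie right of 0 in all 3 comparisons, whereas Csgalnact1, Olfml3 and Pdgfrl lie left of 0 in vincristine rats and near or right of 0 in control rats.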

How the data were processed

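RNA of lumbar DRG was hybridised to Illumina RatRef-12 arrays, 1 per rat. The authors deposited raw signal intensities without normalization, a detection p-value per probe and array, and, separately, log2 values that are quantile-normalized in the files; the sources used here do not name the scanner software. From the intensities, limma 3.58.1 in R 4.3.3 corrected background and normalized between arrays (neqc, log2 scale). A probe was retained if its detection p did not exceed 5e-04 on 4 or more of the 24 arrays. Group means of 6 groups were fitted (lmFit, eBayes, Benjamini-Hochberg over 7043 probes, 18 residual degrees of freedom), with the median SE of a difference at 0.118. With the set as a block it was 0.0828. The script was tested on simulated data.

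Of 22517 probes, 13787 had 1 gene symbol in the platform annotation and 8730 none; 13747 symbols were updated by Entrez number, 5 by accession and 35 were kept. A list counts 1 probe per gene, the brightest. Named genes were those past the adjusted threshold, those with the smallest p per direction (up to 12 without and 8 with the set), up to 3 per list, and a few chosen beforehand; Dnajb9, Dnajb11, Pdia6, Xbp1, Canx, Hsp90b1, Herpud1, P4hb, Pdia3, Ppib, Sel1l, Per1, Per2, Gabbr2, Erp29, Syvn1, Chordc1, Dnaja1, Hspd1, Hspe1 and Ppie were named after their values were seen. The genes, lists and tests were chosen with earlier results of these data known. Counts and medians of lists are descriptions. The number of arrays limits the precision. Figures were drawn with matplotlib 3.10.9.

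Alternatives were the set or the replicate number as a block, other normalizations (the deposited log2 values among them), detection filters, array weights, 8 arrays alone, the methods' t-test, and arrays left out. One promoter sequence is not reported here.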

Additional observations from a re-analysis of the deposited data

Results flagged for a closer look

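Within the groups of 4 rats, Dixon's test set 1 array apart from the other 3 for 18 of the 120 named probes, in 1 of the 2 groups each. Chance marks about 1 in 20 groups, and 240 groups were examined.

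In vincristine-morphine rats these were Creld2 in rat 4 (9.09, above the others), Nr1d1 in rat 1 (7.28, above), Penk in rat 1 (5.90, below), Pnoc in rat 4 (7.33, above), Fabp7, a fatty acid binding protein of glia, in rat 1 (11.32, below), Mbp, myelin basic protein, in rat 1 (8.61, above) and Pf4, a platelet chemokine, in rat 1 (11.64, above). Rat 1 accounted for 5 of these 7.

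In vincristine-saline rats, rat 2 was apart for Ddit3 (9.52, below), the clock repressor Nfil3 (6.66, below), the immediate early gene Jun (8.21, below) and Cd74 (8.24, below). Rat 4 was apart for Calcb (10.66, below), the adhesion protein gene Flrt3 (8.16, above), Cxcl12 (9.51, above) and the replication clamp Pcna (10.68, above). Rat 1 was apart for Hspa5 (12.93, above), the ectonucleotidase Entpd2 (10.75, below) and Pmp22 (14.11, below), a myelin gene otherwise at the top of the scale (14.28).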

How the results depend on the processing

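The count of probes past adjusted p 0.05 was 1 with the set as a block and 0 under every other alternative that kept all 8 arrays. Without arrays of high muscle signal it was 0, with or without the set. Leaving out 1 array gave 0 without the block, and 0 to 4 with it. In those runs with the block, Creld2 and Gng11 passed without vincristine-saline rat 2; Creld2, Dnajb1, Pdia4 and Hspb1 without vincristine-saline rat 1; Creld2 and Dnajb1 without vincristine-morphine rat 2; and Ppie without vincristine-morphine rat 3. The 128 probes at unadjusted p under 0.05 became 354 with the set as a block, 32 after median centring, 295 at detection p 0.05, 647 without a detection filter, 346 with the 8 arrays alone and the set, 367 with array weights, and 231 without and 451 with the set when arrays of high muscle signal were left out. Leaving out 1 array gave 88 to 184 without the block and 277, 298, 317, 335, 359, 370, 377 and 405 with it. Higher probes were 48.4% of these calls, 35.9% without arrays of high muscle signal. For the difference of responses the 80 probes became 274 with the set and 39 after median centring, which also moved the share of higher probes from 45.0% to 15.4%. Leaving out 1 array gave 72 to 118. The cause was not tested.

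The replicate number did not pair the rats: same-numbered rats correlated at 0.371, -0.114, -0.156 and -0.512. With the replicate number as a block 0 probes passed adjusted p 0.05, 140 had an unadjusted p under 0.05, and Creld2 had a limma adjusted p of 0.106.

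Over 120 named probes, 3759 of 3831 values kept their direction and side of the threshold, 9 newly passed it and 63, of 20 probes, changed sign or reached 0. Large differences were among them, those of Acta1 (1.54), Mybpc2 (1.58), Fabp4 (0.96) and Pf4 (-0.45). Dropping arrays with high muscle signal, the differences became -0.10 for Asns, 0.15 for Pnoc, -0.01 for Esam, 0.05 for Gp1bb, -0.02 for Acta1, -0.09 for Mybpc2, -0.11 for Cfd and -0.13 for Ccnb2. With the set as well they became 0.03 for Oprl1, 0.06 for Pnoc, 0.03 for Scn10a, -0.01 for Esam, -0.05 for Mybpc2, -0.16 for Fabp4, -0.12 for Cfd and -0.03 for Ccnb2. Array weights gave 0.00 for Oprl1, -0.03 for Rtp4, 0.72 for Pf4, 0.05 for Gp1bb and -0.07 for Slc6a13, and median centring -0.04 for Slc6a13. Leaving out 1 array, with or without the set, gave -0.11 to 0.05 for Oprl1, -0.23 to 0.11 for Pnoc (0.08 without vincristine-saline rat 1, with the set), -0.08 to 0.01 for Gabarap, -0.02 to 0.10 for Chgb, -0.06 to 0.00 for Scn10a, -0.09 to 0.36 for Nefh, -0.01 to 0.09 for Pmp22, -0.18 to 0.00 for Irf9, -1.18 to 0.02 for Pf4, -0.10 to 0.06 for Gp1bb (0.04 without vincristine-morphine rat 3, with the set), 0.00 to 0.50 for Cfd, 0.00 to 0.13 for Ptgds, -0.21 to 0.16 for Slc6a13 and -0.02 to 0.13 for Ccnb2. Of 1024 list medians under alternatives, 48 moved by more than the standard deviation, between sets, of the median difference of that list.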

Other observations

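Rnf113a2 took values of 2 kinds that followed the groups only in part. In vincristine-morphine rats 1 to 4 it was 7.79, 6.79, 6.92 and 4.48, against 4.37, 4.48, 4.54 and 4.43 in vincristine-saline rats, and it was detected in 3 and 0 rats of these groups. In control rats the order was the opposite, with 4.69, 4.57, 4.49 and 7.21 in saline-morphine rats and 6.91, 7.72, 6.87 and 6.96 in saline-saline rats. Among vincristine-oxycodone rats 2 were high (6.68 and 7.04) and 2 were low (4.49 and 4.34). The difference of responses was 3.91 (95% interval 1.99 to 5.84; limma adjusted p = 1). The gene was named for its small p in vincristine rats, whose values this difference uses again.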
